A study of Junonia coenia with 24 samples.

Results

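Open chromatin in the forewing of the buckeye butterfly Junonia coenia was compared between pupae labelled 6 d after pupation and caterpillars of the 5th (last) larval instar. The comparison took 6 of the 24 libraries of the series, 3 of each group, and every interval of the forewing peak table that passed a filter on low counts, 253438 of 500558 intervals (50.6%). Both groups were whole wing tissue of animals reared at about 27 °C, and the labels name no strain, treatment or sex for either. The rest of the series was prepupal and 72 h pupal forewings and the hindwings of all 4 stages, so that 2 stages are labelled as lying between the groups compared. The sample titles of the pupal group say day 7 where its stage label says 6 d, and both names stand for the same 3 libraries.

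A butterfly wing grows as a folded epithelial sac, the imaginal disc, in the last larval instar, when much of the later colour pattern is laid out by localized gene activity. It everts and expands around pupation. In the pupa the epithelium forms scale cells, cuticle and finally pigment, and pulses of the steroid hormone ecdysone time these changes. In the assay for transposase-accessible chromatin (ATAC-seq) an enzyme inserts sequencing adapters into DNA that is not packed by nucleosomes, so the reads that fall in an interval, a peak, measure how open it was. Open intervals include promoters and enhancers, the stretches where regulatory proteins bind. Genes beside the peaks were not analysed here, and no source used here names the genome build of the contigs. Peaks are therefore named by contig and position, counted from 1. In whole tissue, fewer cells with an open interval and less opening per cell cannot be told apart.

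The 6 libraries held 8588843 to 9669038 counts in peaks for the group labelled 6 d and 7733254 to 10036195 for the 5th instar. Over tested peaks with at least 1 CPM (counts per 1000000 counts in tested peaks) on average, Spearman correlations were 0.734 to 0.769 among the 6 d libraries, 0.730 to 0.772 among the 5th-instar libraries and 0.513 to 0.548 between the groups. Nothing in the labels says that the replicates were separate animals, and the spread behind the p-values may therefore be technical. The label of the pupal group was at odds with the hindwing. Over 113371 matched peaks, with each wing's profile taken as the deviation of a stage from that wing's mean, the forewing labelled 6 d had a Pearson correlation of -0.54 with the hindwing labelled 6 d and of 0.89 with the hindwing labelled 72 h. Such deviations cancel out over a wing's stages, so a high correlation with the hindwing labelled 72 h lowers those with its other stages. Log2 changes over the 5th instar, which do not use this mean, correlated at 0.17 and 0.83 in the same order. The 5th-instar profiles of both wings correlated at 0.84. The peaks share libraries, so these correlations are descriptions. All statements on 6 d below concern the forewing libraries that carry that label.

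Peaks differed between the groups in both directions, in similar numbers. Of 253438 tested peaks 47737 were called (18.8%) at an adjusted p under 0.05 in edgeR's quasi-likelihood test, 25262 of them more open at 6 d (9.97%) and 22475 less open (8.87%). The median log2 change, 6 d over 5th instar, was 1.69 for peaks that rose (quartiles 1.31 and 2.24) and -1.74 for peaks that fell (quartiles -2.33 and -1.31), against -0.03 over all tested peaks. Changes of at least 4-fold were found for 8662 risen and 8426 fallen peaks, and changes of at least 32-fold for 113 and 316. With libraries scaled by their totals alone the split was 20526 risen to 28158 fallen, 42.2% risen in place of 52.9%, and the median over all tested peaks was -0.17. No peak called under both scalings changed direction.

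The libraries of both groups did not overlap at 32.9% of tested peaks, with 40734 higher and 42711 lower in all 3 libraries labelled 6 d. Of the called peaks, 23479 risen and 21554 fallen ones had no overlap. Among the 41414 peaks of at least 5 CPM on average, the median SD of log2 levels between replicates was 0.29 at 6 d and 0.29 at the 5th instar. The smallest log2 change called in either direction had a size of 0.54. Risen peaks held 32.6% to 34.7% of all counts in tested peaks in the 6 d libraries, against 12.1% to 12.2% in the 5th-instar libraries. Fallen peaks held 7.49% to 7.80% at 6 d, against 23.2% to 24.9% at the 5th instar. These shares restate the calls as read numbers and are no separate evidence.

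The most open peaks of the 2 groups were largely the same ones. Of the 2534 peaks with the highest mean level in each group (the top 1%), 1514 were in both lists (59.7%), and of the 25344 of the top 10%, 16370 were (64.6%). Of the top 1% at 6 d 1222 had risen (48.2%), and of the top 1% at the 5th instar 920 had fallen (36.3%). A list ranked by one group favours peaks that are high there, so these shares are descriptions.

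**Figure D1:**
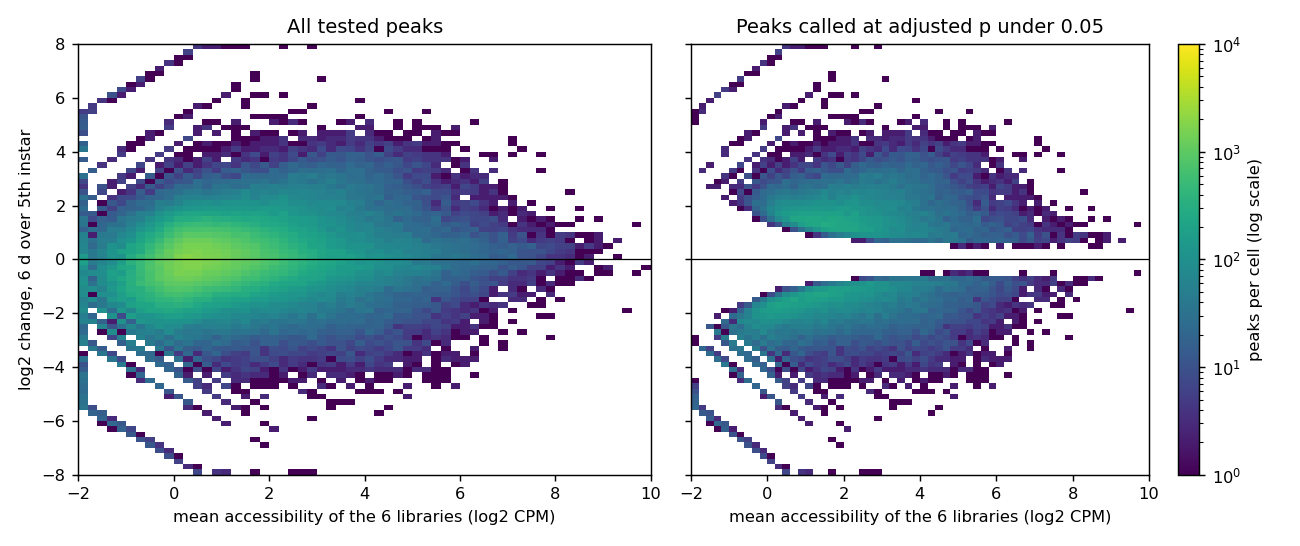
Log2 change, 6 d over 5th instar, against mean accessibility (log2 CPM) for all 253438 tested forewing peaks on the left and the 47737 called peaks on the right; colour gives peaks per cell of the plot on a log scale, and values beyond the axes are drawn at their edge. Calls lie on both sides of 0, and below about 1 CPM calls need larger changes.

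The share of peaks called differed between levels. Below 1 CPM over the 6 libraries 6.60% of peaks were called, and between 20 and 50 CPM 55.4% were. From 100 CPM upwards the share was 40.02%, and the central range of changes was narrower there: the 10th and 90th percentiles of log2 change were -0.84 and 1.19, against -1.54 and 2.42 between 10 and 20 CPM. Below 1 CPM fallen peaks (5.71%) outnumbered risen ones (0.892%), and from 2 CPM upwards risen peaks were the more frequent in every level class.

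The peaks with the largest rises were nearly closed in the larval wing. On contig 000160F, at 958347 to 958709 (363 bp), the libraries labelled 6 d had 40.3, 27.3 and 22.8 CPM, against 0.280, 0.491 and 0.745 CPM at the 5th instar. The log2 change was 5.88 (SE 0.48), with an adjusted p of 4.8e-08 from edgeR. On contig 000161F, at 930534 to 931018, the values were 75.5, 79.3 and 84.8 CPM at 6 d and 1.40, 2.82 and 1.04 CPM at the 5th instar. This peak had the closest 6 d replicates of the 5 with the largest rises, and its log2 change was 5.47 (SE 0.31). Contig 000032F had a peak at 1427479 to 1427844 with 58.1, 46.9 and 19.6 CPM at 6 d, against 1.68, 0.123 and 1.19 CPM at the 5th instar. Its log2 change was 5.41 (SE 0.50), and the groups did not overlap although the third 6 d library was well below the other two. On contig 000011F, at 646127 to 646391, 14.2, 8.56 and 13.3 CPM at 6 d stood against 0.140, 0.245 and 0.447 CPM at the 5th instar. On contig 000291F, at 532932 to 533133, the values were 7.53, 9.30 and 1.58 CPM at 6 d and 0.140, 0.123 and 0.149 CPM at the 5th instar, with the third 6 d library again the lowest of its group. The forewing prepupa and 72 h pupa were low at all 5 peaks, with means of 0.395 to 1.97 CPM at prepupa and 0.479 to 2.77 CPM at 72 h. Against the 5th instar the peak on contig 000160F was nevertheless higher at 72 h, with a log2 change of 2.12 (adjusted p of 0.012 from edgeR). The peak on contig 000011F was higher at prepupa and at 72 h, with log2 changes of 2.32 at both (adjusted p of 0.0026 and 0.0051 from edgeR). Among the 4 forewing stages the group labelled 6 d had the highest mean at each of the 5.

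Falls were ranked under the same limits, so a larval level of at least 5 CPM was set by the rule. The 5 largest had 16.8 to 77.5 CPM in the larval libraries and were close to closed at 6 d. On contig 000063F, at 541153 to 541926 (774 bp), the libraries labelled 6 d had 0.697, 0.295 and 1.004 CPM, against 34.8, 34.2 and 40.4 CPM at the 5th instar. The log2 change was -5.74 (SE 0.32), with an adjusted p of 1.2e-09 from edgeR. On contig 000003F, at 5294139 to 5294703, 0.558, 0.590 and 1.72 CPM at 6 d stood against 35.8, 48.8 and 42.5 CPM at the 5th instar. On contig 000007F, at 1672043 to 1672376, the values were 0.697, 0.738 and 0.143 CPM at 6 d and 20.4, 28.0 and 16.8 CPM at the 5th instar. These log2 changes were -5.45 (SE 0.37) and -5.34 (SE 0.46), and all 3 libraries of one group lay on the far side of all 3 of the other at each peak. Contig 000130F had a peak at 858246 to 858728 with 1.12, 1.62 and 2.15 CPM at 6 d, against 41.4, 66.2 and 69.6 CPM at the 5th instar. The peak on contig 000077F, at 575270 to 576090, had 2.79, 1.18 and 1.15 CPM at 6 d, against 47.3, 60.6 and 77.5 CPM at the 5th instar. At prepupa all 5 fallen peaks had means of 1.28 to 3.24 CPM, whereas at 72 h the means ran from 5.30 CPM on contig 000130F to 29.4 CPM on contig 000007F, where 40.4, 30.3 and 17.5 CPM at 72 h overlapped the 5th-instar values.

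**Figure D2:**
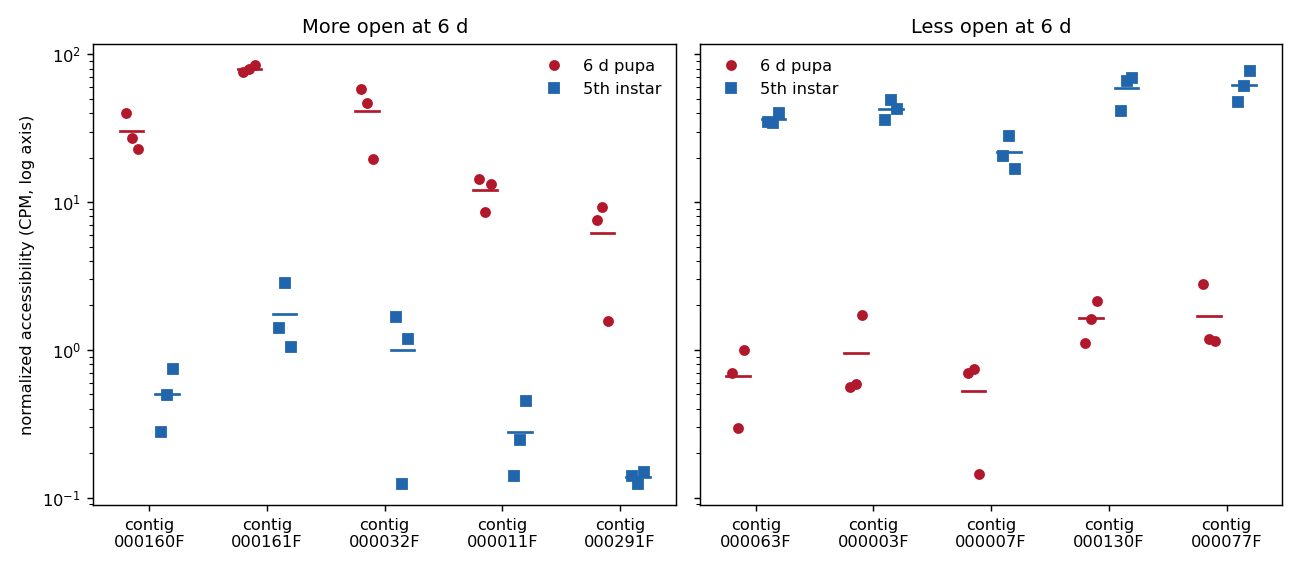
TMM-normalized accessibility (CPM, log axis) of the 5 peaks with the largest rises on the left and the 5 with the largest falls on the right; each point is 1 library, 6 d in red and 5th instar in blue, and the bar is the mean of 3 libraries. At every peak the 3 libraries of one group lie apart from the 3 of the other, and the third 6 d library on contig 000291F, at 1.58 CPM, is the lowest of the values that rose.

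Peaks that opened or closed entirely were few. Mean levels under 0.5 CPM in one group and at least 5 CPM in the other were found for 93 risen and 107 fallen called peaks. No read at all in the 3 larval libraries was found at 389 tested peaks, 60 of them called, and no read in the 3 libraries labelled 6 d at 706, 262 of them called. Over all tested peaks 18.8% were called. Peaks without a read in a group passed the low-count filter only through libraries of other groups, so these counts are descriptions. The clearest case was on contig 000063F, at 1862206 to 1862562. It had 0 reads in each 6 d library, against 83, 101 and 123 reads at the 5th instar (11.6, 12.4 and 18.3 CPM), and was at least 98.4-fold lower at 6 d, with 3 counts over the group as the floor. Several others of this kind rested on part of a group. On contig 000435F, at 144387 to 144726, the 6 d libraries had 204, 99 and 0 reads and the 5th-instar libraries had none, so that the third 6 d library did not differ from the larval ones. On contig 000356F, at 181541 to 181859, all 210 reads came from the first 6 d library, and without it no reads were left in either group. On contig 000269F, at 390405 to 390756, all 233 reads came from the third 5th-instar library, and without that library no reads were left in either group. Both peaks nevertheless passed the test, with adjusted p-values of 0.022 and 0.013 from edgeR.

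Reads at such loci went with the replicate number in the hindwing. At the peak on contig 000269F the 5th-instar forewing libraries had 0, 0 and 34.7 CPM, and the 5th-instar hindwing libraries of the same numbers had 0, 0 and 34.4 CPM. At the peak on contig 000356F the forewing libraries labelled 6 d had 29.3, 0 and 0 CPM, and the hindwing libraries labelled 72 h had 37.3, 0 and 0 CPM. At the peak on contig 000435F the corresponding values were 28.4, 14.6 and 0 CPM in the forewing labelled 6 d and 31.7, 16.9 and 0 CPM in the hindwing labelled 72 h. The hindwing labelled 6 d had 3.81 CPM or less in each library at the 2 peaks that rose, and 2.66 to 3.56 CPM at the peak that fell.

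The most open of the called peaks changed much less. The strongest risen peak, on contig 000169F at 604271 to 606158 (1888 bp), had 1255, 1074 and 1070 CPM at 6 d, against 312, 483 and 554 CPM at the 5th instar. Its log2 change was 1.33 (SE 0.20), with an adjusted p of 7.5e-05 from edgeR. On contig 000177F, at 520144 to 525326, 787, 678 and 710 CPM at 6 d stood against 191, 282 and 298 CPM at the 5th instar, a log2 change of 1.497 (SE 0.19). Both peaks separated the groups by more than the whole spread within either. The other 2 of the 4 strongest risen peaks without overlap were closer to the limit of the test. The interval on contig 000012F at 2576532 to 2598105 spans 21574 bp and had a log2 change of 0.80 (SE 0.20), which lost its call without the first 6 d library. The peak on contig 000337F at 451915 to 453441 had a log2 change of 0.69 (SE 0.22) with an adjusted p of 0.032, and lost its call when the first or the second library of either group was left out.

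Among strong peaks that fell, contig 000705F stood out. Its peak at 32486 to 33017 (532 bp) had 240, 305 and 337 CPM at 6 d, against 1471, 1148 and 907 CPM at the 5th instar. The log2 change was -2.0 (SE 0.27), with an adjusted p of 1.7e-05 from edgeR, and the hindwing 5th-instar libraries were likewise the highest of that wing at this peak, with 1033, 822 and 1247 CPM. No other tested peak lay within 10 kb of it. Contig 000022F had a peak at 2118370 to 2118759 with 299, 334 and 330 CPM at 6 d, against 541, 535 and 526 CPM at the 5th instar. Its replicates were tight in both groups and its log2 change was -0.73 (SE 0.18). The peaks on contig 000072F (1055135 to 1055552) and contig 000123F (576762 to 581045) had log2 changes of -0.56 (SE 0.18) and -0.69 (SE 0.19). Leaving out 1 of the 6 libraries in turn ended the call of the peak on contig 000072F in every case but that without the third 5th-instar library. The peak on contig 000123F lost its call without the second or the third library of either group.

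A further set of very open peaks was not called between these groups but was less open at prepupa. The 4 most open uncalled peaks with log2 changes between -0.2 and 0.2 lay on contigs 000035F, 000026F, 000031F and 000070F and were 2720 to 4037 bp wide. The peak on contig 000035F, at 1452624 to 1455961, had 711, 552 and 654 CPM at 6 d, against 411, 631 and 772 CPM at the 5th instar, with a log2 change of 0.08 (SE 0.22). At prepupa the same peak had 117, 178 and 176 CPM, below every library of both groups. The other 3 peaks were likewise lowest at prepupa, with means of 123, 124 and 76.2 CPM, against 430, 444 and 406 CPM at 6 d and 454, 436 and 391 CPM at the 5th instar. Low levels at prepupa were not particular to this set. The 4 strongest risen and 4 strongest fallen peaks named above also had their lowest forewing stage mean there, at 78.4 to 359 CPM.

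Levels at prepupa and 72 h were compared at risen and fallen peaks. The order of the stages is that of the labels, and since the wings disagree on the label 6 d, the places of the forewing libraries labelled prepupa and 72 h in that order are uncertain too. Prepupal and 72 h libraries entered the low-count filter and the spread estimate but not the contrast that made the calls. Their levels were not selected for the difference itself, while those at 6 d and at the 5th instar were. At risen peaks the median level was 2.08 CPM at the 5th instar, 2.23 CPM at prepupa, 2.28 CPM at 72 h and 7.27 CPM at 6 d. At fallen peaks it was 4.49, 2.16, 3.01 and 1.35 CPM in the same order, and at uncalled peaks 1.51, 1.60, 1.54 and 1.54 CPM. Median levels of risen peaks were thus near the larval level under both labels between, and those of fallen peaks were lower at prepupa than at 72 h. Of risen peaks 93.5% had their highest stage mean at 6 d, with 3.18% at prepupa and 3.36% at 72 h. Of fallen peaks 64.7% had their lowest mean at 6 d and 31.3% at prepupa, while 66.8% had their highest mean at the 5th instar and 19.7% at 72 h. The calls selected peaks for their levels at 6 d and at the 5th instar, which favours those stages in these shares. Against the same 5th-instar libraries, 79670 peaks were called at prepupa (31.4%), with 28519 risen and 51151 fallen, and 27421 at 72 h (10.8%), with 13446 risen and 13975 fallen. The 3 comparisons share their 5th-instar libraries.

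**Figure D3:**
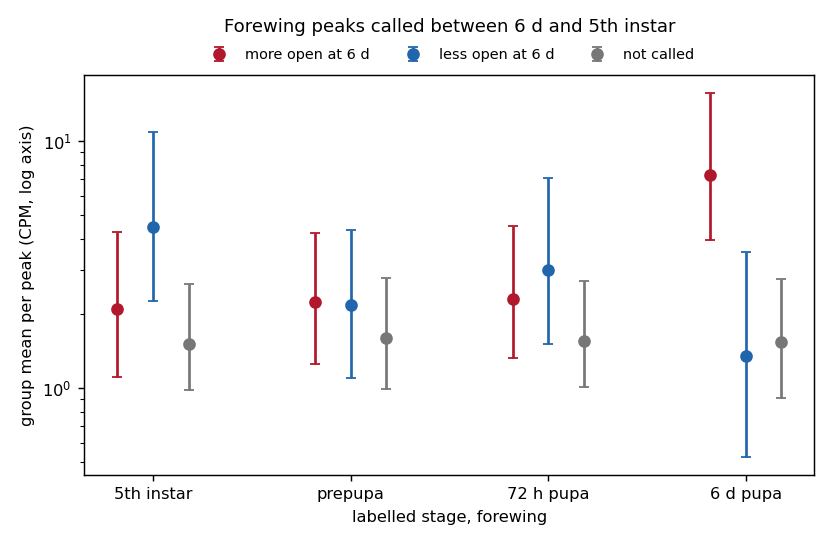
Median (point) and quartiles (bars) over peaks of the stage mean accessibility (CPM, log axis) in the forewing for the 25262 risen, 22475 fallen and 205701 uncalled peaks. Risen peaks sit at 2.08 to 2.28 CPM at the first 3 stages and at 7.27 CPM at 6 d, whereas fallen peaks are at 4.49 CPM at the 5th instar, 2.16 CPM at prepupa, 3.01 CPM at 72 h and 1.35 CPM at 6 d.

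The share of peaks that rose or fell differed with their width and spacing. Called peaks were wider than uncalled ones, with medians of 322 bp for risen, 346 bp for fallen and 224 bp for uncalled peaks. Over all tested peaks the share that rose was higher in each wider class from 200 bp upwards, at 12.8% for 200 to 400 bp, 14.7% for 400 to 800 bp, 15.2% for 800 to 1600 bp and 17.8% for 1600 bp or more. The share that fell was 8.12%, 14.8%, 19.3% and 19.8% in the same order. Wider peaks were also more open, with medians of 4.24 CPM at 400 to 800 bp and 28.8 CPM in the widest class. Within one level range the order of the rises was the opposite. At 5 to 20 CPM, peaks of 200 to 400 bp rose in 47.2% of cases and fell in 11.96%, with a median log2 change of 0.85. Peaks of 400 to 800 bp rose in 27.2% and fell in 20.9%, those of 800 to 1600 bp rose in 13.5% and fell in 18.9%, and those of 1600 bp or more rose in 6.75% and fell in 14.7%. Of the 39 peaks of 100 to 200 bp in this level range none rose and 21 fell. Crowded peaks, under 500 bp from the nearest other tested peak, rose in 9.61% and fell in 10.3% of cases. Peaks 2 to 5 kb from the nearest tested peak rose in 11.7% and fell in 4.07%, with a median log2 change of 0.30. Interval ends were set by the authors' peak calling, whose part in these differences was not tested.

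Neighbouring peaks tended to change the same way. Across pairs of tested peaks on a contig, the log2 changes correlated at 0.33 for peaks under 500 bp apart, at 0.15 at 2 to 5 kb and at 0.076 at 100 to 200 kb. Ratios between 2 replicates of one group, which hold no stage difference, also correlated between neighbours: at 0.19 (6 d) and 0.31 (5th instar) under 500 bp, at 0.073 and 0.089 at 2 to 5 kb, and at 0.039 and 0.052 at 100 to 200 kb. The stage difference exceeded both at every distance, with the smallest margin over the 5th-instar ratio under 500 bp. The stage change compares 3 libraries with 3, and each ratio compares only replicates 1 and 2. Counting noise therefore differs between these measures, and its part in the margins was not tested. When both peaks of a pair were called, they changed in the same direction in 85.6% of pairs under 500 bp, in 64.6% at 2 to 5 kb and in 57.5% at 100 to 200 kb. The same peak enters many pairs, so these values describe the table and carry no p.

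**Figure D4:**
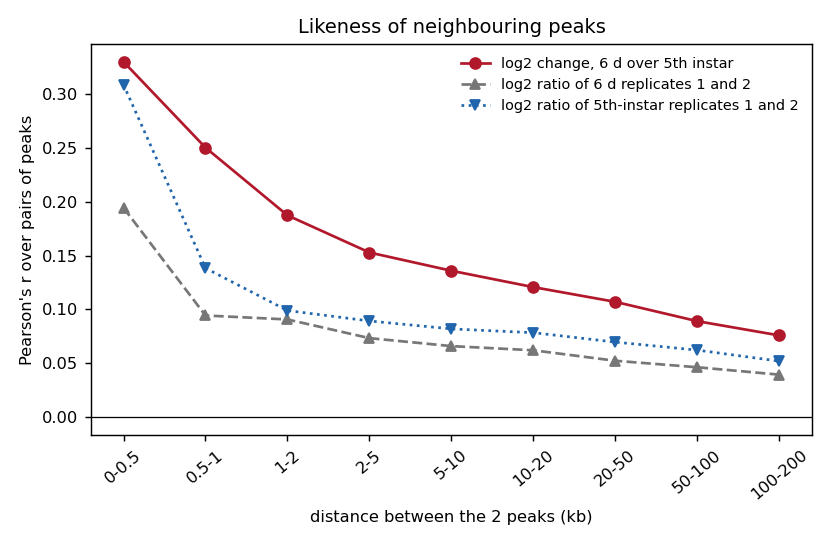
Pearson's r between the values of 2 peaks on the same contig against the distance between them (kb), for the log2 change of 6 d over 5th instar (red), the log2 ratio of 6 d replicates 1 and 2 (grey) and the log2 ratio of 5th-instar replicates 1 and 2 (blue). The curve of the stage difference declines from 0.33 to 0.076 and lies above both replicate curves at every distance.

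Unbroken runs of successive tested peaks called in one direction were counted as well, where a single peak also made a run. Of 20288 runs of rises 92 held 5 or more peaks, and of 17035 runs of falls 94 did. These long runs held 555 of the 25262 risen and 521 of the 22475 fallen peaks. How many would arise without likeness between neighbours was not tested. The longest run of rises held 13 peaks on contig 000096F between 379905 and 393436, with log2 changes of 0.89 to 3.88 and a summed level of 393 CPM at 6 d, against 58.2 CPM at the 5th instar. A run of 12 rises on contig 000160F, from 966870 to 982155, lay in the same 100 kb window as the peak with the largest rise. The longest run of falls held 9 peaks on contig 000054F between 1330349 and 1339494, with log2 changes of -4.80 to -0.96 and a summed level of 47.4 CPM at 6 d, against 208 CPM at the 5th instar. These runs were picked for their length, so their values are descriptions. The other tested peaks within 10 kb of the named peaks can be set against the shares over all tested peaks, of which 9.97% rose and 8.87% fell. Around the 5 peaks with the largest rises, 7 of 17 rose on contig 000161F, 6 of 14 on contig 000011F, 4 of 20 on contig 000032F, 1 of 4 on contig 000160F and 1 of 9 on contig 000291F, and none fell. Around the 5 with the largest falls, 9 of 20 fell and 1 rose on contig 000003F, 5 of 9 fell on contig 000063F (541153), 7 of 20 fell and 1 rose on contig 000007F, 8 of 24 fell and 2 rose on contig 000130F, and none of 9 fell and 1 rose on contig 000077F. Around the strongest called peaks the counts were mixed. For the rises, 2 of 16 rose on contig 000169F and 4 of 14 rose and 2 fell on contig 000337F. On contig 000177F 1 of 15 rose and 2 fell, and on contig 000012F 1 of 3 rose and 1 fell. For the falls, 6 of 22 fell and 4 rose on contig 000123F, and 3 of 13 fell and 2 rose on contig 000072F. None of 3 was called on contig 000022F, and contig 000705F had no other tested peak in this range.

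Counts summed over windows of 100 kb were tested as well. Of 6025 tested windows 34.0% were called, 1392 more open at 6 d (23.1%) and 659 less open (10.9%), with a median log2 change of 0.14 over all windows. With library totals the split was 984 to 1010 and the median 0.03, so the excess of windows that rose depended on the scaling. The largest rise among windows with at least 20 tested peaks was at 900001 to 1000000 on contig 000160F, which had 421, 323 and 394 CPM at 6 d, against 86.3, 87.5 and 107 CPM at the 5th instar. Its log2 change was 2.02 (SE 0.33), and 22 of its 42 tested peaks rose while 2 fell. The first 100 kb of contig 000410F had 388, 265 and 276 CPM at 6 d, against 81.3, 81.3 and 70.6 CPM at the 5th instar, with means of 147 CPM at prepupa and 209 CPM at 72 h between them. On contig 000009F, the window at 3800001 to 3900000 had 166, 172 and 148 CPM at 6 d, against 45.3, 41.9 and 41.8 CPM at the 5th instar. It was lower still at prepupa (19.9 CPM) and at 72 h (30.2 CPM), a course unlike that of contig 000410F.

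The windows with the largest falls held many peaks each. At 5200001 to 5300000 on contig 000003F the libraries labelled 6 d had 116, 91.1 and 138 CPM, against 423, 476 and 429 CPM at the 5th instar, a log2 change of -1.94 (SE 0.14). Of its 83 tested peaks 26 fell and 2 rose, and the window was low at prepupa (99.2 CPM) and high at 72 h (396 CPM). The 2 windows of contig 000054F named by the rule, at 400001 to 500000 and at 1300001 to 1400000, had log2 changes of -1.80 (SE 0.17) and -1.72 (SE 0.11). In the first, 48 of 87 tested peaks fell and 2 rose, and in the second 43 of 89 fell and 1 rose. Both were closer to the 6 d level than to the larval one at prepupa and at 72 h, with 272 CPM at 6 d beside 232 CPM at prepupa and 271 CPM at 72 h in the first, and 197 CPM at 6 d beside 300 CPM at prepupa and 260 CPM at 72 h in the second. The 5th-instar means were 943 and 652 CPM.

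Calls in both directions within one window were common. Of 1680 called windows with at least 20 tested peaks, 1131 held peaks called in both directions. Of 361 contigs with at least 50 tested peaks, 341 held both risen and fallen peaks. Over all tested peaks 9.97% rose and 8.87% fell. Windows and contigs with this many tested peaks tend to hold both kinds by number alone, so these counts are descriptions. The contig medians of log2 change ran between -1.21 on contig 000233F, where 24 of 67 tested peaks fell and 2 rose, and 1.03 on contig 000424F, where 23 of 87 rose and 1 fell. Contig 000211F, with 436 tested peaks, had a median of 0.97, and 118 of its peaks rose while 11 fell.

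The hindwing gave the same labelled comparison in libraries that the forewing calls did not use. In the hindwing labelled 6 d against the hindwing 5th instar, 57656 of 258640 tested peaks were called (22.3%), 20063 risen (7.76%) and 37593 fallen (14.5%), and with library totals 48864 risen and 26693 fallen. Over the 113371 matched peaks tested in both wings, 7.85% rose and 18.7% fell in this hindwing comparison. Of 17274 forewing peaks that rose and were tested in the hindwing, 1297 also rose there (7.51%), close to that share, and 2524 fell (14.6%). Of 10299 forewing peaks that fell, 5709 also fell in the hindwing (55.4%) and 294 rose (2.85%). The shared falls were 26.9% of the hindwing falls among matched peaks. The hindwing labelled 72 h against the hindwing 5th instar had 22482 risen (8.69%) and 12921 fallen peaks (5.00%), or 16659 and 20062 with library totals. Over the matched peaks 13.4% rose and 6.05% fell in the hindwing labelled 72 h. Of the same 17274 forewing rises 12315 rose there (71.3%) and 4 fell, and of the 10299 forewing falls 5053 fell (49.1%) and none rose. The shared rises were 81.3% of the rises of the hindwing labelled 72 h among matched peaks, and the shared falls 73.7% of its falls. Across 113371 matched peaks the forewing log2 change had a Pearson's r of 0.17 (Spearman's rho 0.12) with that of the hindwing labelled 6 d, and of 0.83 (rho 0.77) with that of the hindwing labelled 72 h. Both hindwing comparisons use the same 5th-instar hindwing libraries.

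**Figure D5:**
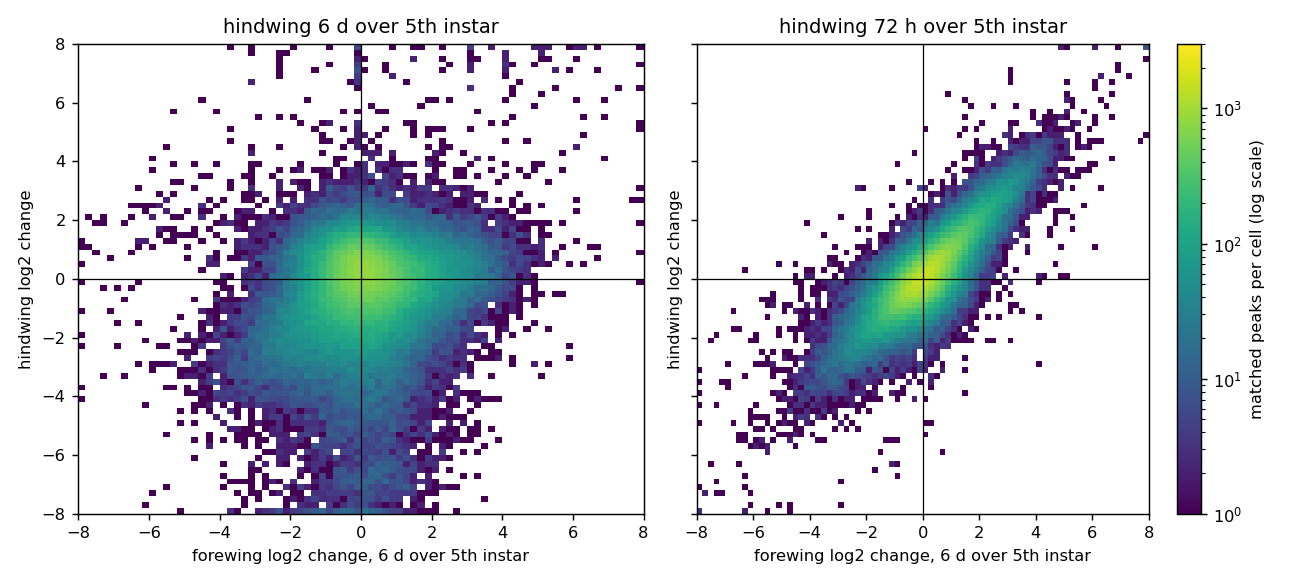
Hindwing log2 change over its own 5th instar against the forewing log2 change, 6 d over 5th instar, for 113371 matched peaks; colour gives peaks per cell on a log scale, values beyond the axes are drawn at their edge, and the hindwing labelled 6 d is on the left and that labelled 72 h on the right. The cloud has no clear slope on the left (r = 0.17) and follows the diagonal on the right (r = 0.83).

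The difference between the wings was tested in a fit of all 24 libraries on 127816 matched intervals. The forewing change exceeded the hindwing change under the same labels at 20593 intervals and fell short of it at 9945, together 23.9%. With library totals these numbers were 12683 and 23446, so the direction of the excess depended on the scaling. Against the hindwing labelled 72 h, edgeR called 2 intervals (0.00156%), both higher in the forewing, and 5483 intervals (4.29%) had an unadjusted p under 0.05. With same-numbered libraries of both wings as a block, in a fit of 12 libraries, 156 intervals were called, 50 higher and 106 lower in the forewing. A call that was missed does not show that the changes were equal.

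Both intervals called without the block lay on contig 000025F, and both moved in opposite directions in the wings. They are named here because of their values. At 975305 to 975639 the forewing had 4.60, 14.5 and 3.73 CPM at 6 d, against 0.980, 1.59 and 1.34 CPM at the 5th instar, while the hindwing had 3.44, 7.08 and 2.30 CPM under the 72 h label, against 16.3, 18.6 and 20.3 CPM at the 5th instar. The difference between the wings' log2 changes was 4.65 (SE 0.66), with an adjusted p of 0.019 from edgeR. At 1072903 to 1073575 the forewing had 8.36, 6.05 and 6.31 CPM at 6 d, against 2.24, 2.70 and 2.68 CPM at the 5th instar, while the hindwing had 5.09, 3.29 and 5.09 CPM under the 72 h label, against 8.52, 10.1 and 8.01 CPM at the 5th instar. This difference was 2.44 (SE 0.38), with an adjusted p of 0.044 from edgeR. In each wing the groups did not overlap at either interval, and the pupal levels of the wings were closer to each other than the larval levels. The direction of both differences was the same in all 16 alternative fits. The first kept its call in 8 of them and the second in 2, and both were called with the block of same-numbered wings.

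At the named peaks the hindwing levels were as follows. The peak on contig 000161F had 75.5, 79.3 and 84.8 CPM in the forewing labelled 6 d, against 1.22, 0.914 and 2.41 CPM in the hindwing labelled 6 d and 85.9, 81.9 and 96.2 CPM in the hindwing labelled 72 h. The 5 peaks with the largest rises had 0.152 to 3.84 CPM in each hindwing 5th-instar library. The 4 matched peaks among those with the largest falls had 0.551 to 2.96 CPM in each hindwing library labelled 72 h, against 15.6 to 85.6 CPM in each hindwing 5th-instar library. In the hindwing labelled 6 d they were also low, at 0.711 to 3.81 CPM per library.

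The share of forewing intervals with any read was 86.1%, 86.0% and 88.0% in the libraries labelled 6 d and 93.6%, 93.6% and 90.8% at the 5th instar, a difference of -5.95 percentage points. The groups did not overlap, and the exact two-sided permutation test gave p = 0.1, the smallest value that 3 against 3 libraries allow. The share of counts in the top 1% of intervals was 31.1% to 33.3% at 6 d and 26.4% to 33.0% at the 5th instar (exact permutation p = 0.7). The part of this difference in the calls at low levels was not tested.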

How the data were processed

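The authors deposited read counts per peak interval, not normalized, in one table for each wing with its own intervals. Per the labels' protocols, Tn5 transposase was applied to nuclei from whole wings. Bowtie2 and deepTools were used, per the submitters' processing notes. Versions, genome build, peak caller, duplicate handling and any shift of read ends are named in no source used here. Counts that keep duplicates or reads with several map positions are less precise than they look, and the authors' interval ends decide which reads a count holds.

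Groups came from the labelled stage and tissue and the numbers from the titles. Peaks kept by filterByExpr (minimum count 10, minimum total 15) were tested in edgeR 4.0.16 (R 4.3.3) by its quasi-likelihood F test, in the form used before version 4, with TMM factors and one spread estimate over the 12 libraries of a wing. Calls have a Benjamini-Hochberg adjusted p under 0.05 over all tested peaks. CPM values of peaks are TMM-normalized over tested peaks. Those of windows use totals over all intervals with the relative scale factors of the peak fit. Deviations of same-numbered libraries used edgeR's log2 CPM, with its own pseudocount and without TMM factors. Other log2 levels used a pseudocount of 0.5 CPM. Windows of 100 kb sum all intervals by midpoint. Wing intervals were matched as best pairs of at least 80% reciprocal overlap. The floor for groups without reads was 3 counts over the group.

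Same-numbered libraries of the wings deviated together from their group means, with correlations of 0.277 to 0.329 between the 5th-instar wings and of 0.378 to 0.459 between the forewing labelled 6 d and the hindwing labelled 72 h. All differently numbered libraries of these groups correlated negatively. Deviations from a group mean cancel out within the group, so negative values there follow on average from the positive same-numbered ones. Between the wings labelled 6 d the same-numbered correlations were 0.012 to 0.042. The pairing comes from the data, since the labels do not say that a number marks one animal, and a fit with these pairs as a block was added after seeing the data.

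Named peaks followed a rule. It took the 5 rises and 5 falls that were called, had a read in all 6 libraries and no overlap, reached 5 CPM or more in the higher group and had the largest log2 change. It also took the 3 rises and 3 falls with no read in the lower group and the highest level, the 4 rises and 4 falls with the highest level and no overlap, the 4 most open uncalled peaks with log2 changes between -0.2 and 0.2, and the 3 rising and 3 falling windows with the largest change among those with at least 20 tested peaks. The comparison, the lists and the rule were chosen with earlier results of these data known. DESeq2 1.42.0, other scalings, filters and overlaps, and leaving out each library were tried as alternatives.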

Additional observations from a re-analysis of the deposited data

Results flagged for a closer look

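The forewing difference between 6 d and the 5th instar differed from the hindwing difference under the same labels at 14 of the 24 named peaks that had a matched hindwing interval, in edgeR's test of the difference itself over all 127816 matched intervals. Over all these intervals the share was 23.9%, and over the 17475 matched peaks that had risen in the forewing it was 55.9%; the named peaks were chosen in part for large forewing changes, so their count is a description. Values are the forewing minus the hindwing log2 change. Among the peaks with the largest rises it was 5.18 on contig 000160F, 5.84 on contig 000161F, 4.56 on contig 000032F, 4.62 on contig 000011F and 4.63 on contig 000291F. Among peaks that fell it was -3.05 on contig 000063F at 541153, -6.43 on the same contig at 1862206, where the forewing libraries labelled 6 d had no read, and -2.70 on contig 000007F. Strong peaks that rose had 2.90 on contig 000169F, 2.87 on contig 000337F and 2.12 on contig 000177F. At very open peaks not called between the forewing groups the difference was 1.96 on contig 000035F, 1.70 on contig 000031F and 1.97 on contig 000070F. Against the hindwing labelled 72 h, the difference passed the test at 2 intervals of contig 000025F, with 4.65 at 975305 and 2.44 at 1072903.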

How the results depend on the processing

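Every peak called both in the main test and in an alternative kept its direction. The replicate number as a block called 23242 rises and 20241 falls in the forewing, against 25262 and 22475 without it; same-numbered libraries of the 2 forewing groups did not deviate together (correlations of -0.062, -0.060 and -0.008), so the numbers do not pair these samples. The test against a 2-fold change called 8246 rises and 6041 falls, and requiring 50 counts in 3 libraries called 14595 and 12486, with fewer peaks tested. Leaving out 1 library gave 19499 to 24241 rises and 16681 to 20483 falls. DESeq2 called 23385 and 20823, with 47 peaks left without an adjusted p. Windows of 50 kb gave 2482 rises and 1291 falls and windows of 200 kb 766 and 336, while library totals gave 1010 falls at 100 kb. Leaving out 1 library gave 1092 to 1351 rising and 487 to 790 falling windows. In the hindwing labelled 6 d, library totals gave 48864 rises, the 50-count minimum 15066 falls, and leaving out 1 library 11107 to 14993 rises and 28669 to 35737 falls. In the hindwing labelled 72 h they gave 20062 falls with library totals, 12096 rises with the 50-count minimum, and 16705 to 21031 rises and 8901 to 11484 falls with 1 library left out. The difference between the wings labelled 6 d was higher in the forewing at 12683 and lower at 23446 intervals with library totals, and higher at 31490 with 50% overlap. With 1 library left out it was higher at 17639 to 19941 and lower at 7890 to 9893. Against the hindwing labelled 72 h, library totals and the plain replicate block each left 1 interval, 50% overlap gave 18 higher and 8 lower, the block of same-numbered wings 50 higher and 106 lower, and leaving out 1 library 0 to 3 higher and 0 lower. The share of intervals with a read differed by -1.68 percentage points among tested intervals alone; with 1 library left out it differed by -6.87 to -5.48. Of 497 values of the named peaks and windows under alternatives, 445 counted as unchanged. For called ones this means that they kept their direction and their call, and all remaining values lost the call. The 4 named peaks that were not called in the main test stayed uncalled, and their log2 changes took either sign. The cause of these shifts was not tested. Weak peaks limit the result: the median interval held 5 or 6 counts per library.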
